A study of Bos taurus with 88 samples.

Results

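The LF beef calves compared here were bled at 72 h and again at 168 h of age, and the 14 whole-blood RNA-seq libraries of these 7 calves were taken by the labels' breed (LF) and time point and paired by ear-tag number. They make up 14 of the 88 libraries of a study that followed Holstein dairy calves (H, 8 calves) and beef calves out of LF (Limousin × Friesian) and CL (Charolais × Limousin) cows over the first week of life. LF calves were sired by Aberdeen Angus or Charolais bulls, suckled their own dam, and stayed with it throughout, so that each calf at 168 h differed from itself at 72 h by 96 h of age and of suckling. CL calves belonged to the same suckler herd and were managed alike, whereas H calves were kept on another farm. H calves were fed their dam's colostrum by tube and teat, in set proportion to body weight. Between 72 h and 168 h they went from individual to group pens and from colostrum to milk replacer. Breed and management therefore cannot be told apart in H calves, and their change over these ages includes this switch. All dams had been vaccinated in pregnancy against bovine herpesvirus 1 and against calf scour agents. Every calf was first bled at 0 h, before it had suckled or been fed.

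A calf is born with almost no circulating antibody, because the bovine placenta keeps maternal immunoglobulin from the fetus, and it takes up immunoglobulin and maternal cells from colostrum across the gut during the first hours of life. At the same time its blood changes quickly: neutrophils, raised around birth with cortisol, decline over the following days, fetal haemoglobin is replaced, and lymphocytes meet microbes from the gut and airways. Whole blood collected into RNA-preserving tubes holds leukocytes, reticulocytes and platelets together. In such a bulk sample fewer cells of a type and less RNA per cell cannot be told apart. The count files give Ensembl gene identifiers that none of the tables used here pairs with a gene symbol, so that blood cell markers could not be looked up, the labelled tissue was not checked against them, and genes are described by groups set by their behaviour in other samples, with 4 genes named by identifier.

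The 14 libraries held between 18977185 and 27435242 counts on genes, which is 56.7% to 68.5% of the reads counted, and none of the 91 pairs of libraries was identical. Of the 24616 genes in the files, 12738 passed the filter on low counts and were tested. The 72 h library of calf 3165 stood apart: 23.4% of its reads mapped to several places, against 7.37% to 13.4% in the other 72 h libraries and 7.25% to 9.82% at 168 h, and its 10 most counted genes took 20.5% of its counts. The 168 h library of the same calf was the only one of the 14 whose label ended in R, the meaning of which is not given in the sources used here. The labels also gave an L number, with 10 numbers among the 14 libraries and at most 2 libraries to a number, too few to give a value within any of them. Of the LF libraries at the earlier ages, the 0 h library of calf 3167 stood apart, with 26.1% of its reads on genes and 27.7% unmapped. Values without calf 3165 or calf 3167 are given beside several of the results that use these libraries. Of the H libraries used for comparison, those of 2 calves at 72 h stood apart, at root mean square distances of 1.29 and 0.839 in log2 CPM from the mean of the other H calves, against 0.435 to 0.544 for the rest.

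More genes were downregulated than upregulated between 72 h and 168 h in LF calves, a balance that held with 2 scalings and turned with the other one used. With edgeR's quasi-likelihood test, the calf as a block and Benjamini-Hochberg adjustment, 1748 of the 12738 genes (13.7%) were differentially expressed (DEG, an adjusted p under 0.05 together with a change of 1.5-fold or more). Of these, 538 (4.22% of genes tested) were upregulated and 1210 (9.50%) were downregulated at 168 h. Their median log2 fold changes were 0.83 and -0.96, or 1.78-fold and 1.95-fold, beside a median of 0.04 over all genes tested. Changes of at least 2-fold were found for 167 upregulated and 549 downregulated DEG, and changes of at least 4-fold for 30 and 68. A DEG moved in its called direction in all 7 calves for 406 of the 538 and for 916 of the 1210, and in fewer than 6 calves for 2 and 5. The DEG were chosen on these same paired changes, which favours such agreement. These counts are therefore a description, and the share over all genes tested was not taken. The levels of the 7 calves at 168 h lay wholly outside the range of the 7 at 72 h for 67 upregulated and 258 downregulated DEG. Over all genes tested such separation was found for 1.25% of genes in the upward and 2.50% in the downward direction.

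**Figure D1:**
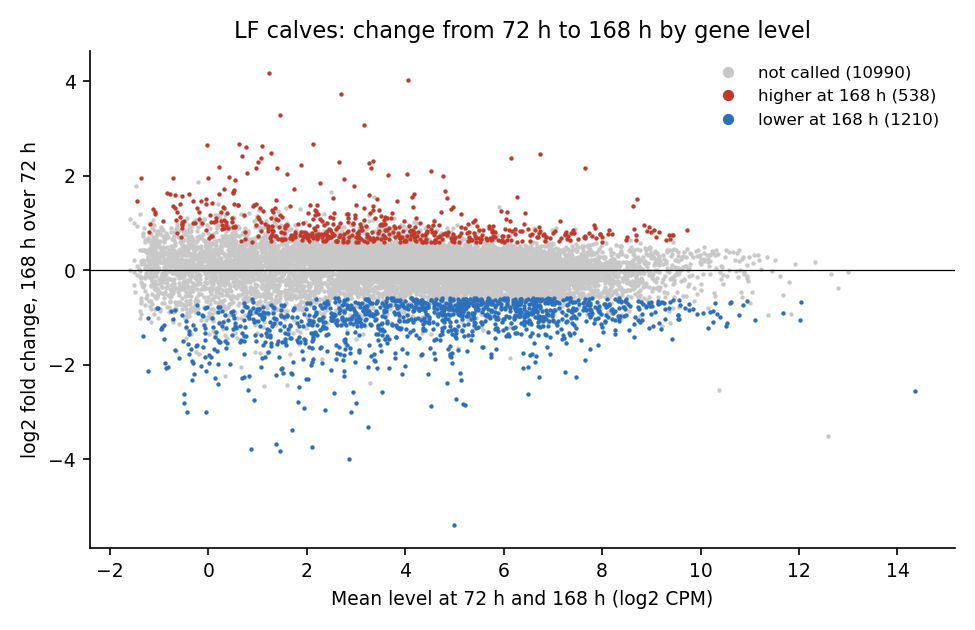
Each point is 1 of the 12738 genes tested, with its mean level at 72 h and 168 h in log2 CPM (counts per 1000000 counts on genes, after scaling) on the horizontal axis and its log2 fold change, 168 h over 72 h, on the vertical axis. The 538 upregulated DEG (red) thin out toward high levels, and the 1210 downregulated DEG (blue) reach the most highly counted genes.

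The split between the directions depended on how the libraries were scaled. Scaled by TMM (the trimmed mean of M-values, which assumes that most genes keep their level), 69.2% of DEG were downregulated, and scaled by the size factors of DESeq2 it was 70.6%. Scaled by total counts on genes alone, 1535 genes were upregulated and 855 downregulated, so that 35.8% were downregulated, and the median log2 fold change of all genes moved by 0.19 to 0.23. No DEG changed to the opposite call under either scaling, and all 538 upregulated and 834 of the 1210 downregulated DEG kept their call under total counts. An opposite call could hardly arise, since the larger shift, of 0.19, is smaller than the 1.5-fold change that a DEG had to show. This shift was upward, which also favours the calls of the upregulated DEG. TMM factors, taken here over all 88 libraries and not from the fit of the 14, were higher at 168 h in all 7 calves. They were 1.15 ± 0.031 (SD, n = 7) at 168 h against 1.01 ± 0.069 at 72 h (exact paired permutation test, two-sided, p = 0.0156, the smallest possible with 7 pairs, adjusted p = 0.0469 over 6 library measures). The share of counts in the 10 most counted genes moved with them, at 10.0% ± 5.02 at 72 h and 5.91% ± 0.751 at 168 h (SD, n = 7), and was lower at 168 h in 7 of 7 calves (exact paired permutation test, p = 0.0156, adjusted p = 0.0469). The mean change of this share was -4.13 points, and -2.38 points without calf 3165. The part of this share in the balance of directions was not tested. Changes are given below relative to the TMM scale, apart from shares of counts and where total counts are named.

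The number of DEG depended on which calves were in the fit. It was 521 without calf 3139, 612 without calf 3167, 508 without calf 3170 and 1149 without calf 3177, and it lay between 1498 and 2098 without calf 3165, 3172 or 3179. The direction of each DEG was the same in every one of these fits that gave it a value, between 1740 and 1746 DEG per fit, and at least 1390 of them still changed by 1.5-fold or more. The DEG were chosen with all calves in the fit, and each of these fits reuses most of those calves. The same direction is therefore favoured by the choice of the genes and is no separate test. DESeq2 gave 2340 DEG with the calf as a block and 2189 without it. A test against a fold change of 1.5 rather than against no change left 52 DEG, 13 upregulated and 39 downregulated.

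Downregulated genes made up more of the DEG among highly counted genes than among sparsely counted ones. When genes were ranked by mean CPM and cut into 3 equal groups of 4246, the DEG of the lowest group (0.330 to 10.0 CPM) were 279 upregulated and 408 downregulated, those of the middle group 141 and 336, and those of the highest group (43.0 CPM and above) 118 and 466. Downregulated genes were thus 59.4%, 70.4% and 79.8% of the DEG from the lowest to the highest group, and 30.9%, 32.2% and 49.2% when scaled by total counts alone. Without calf 3165 the shares were 61.1%, 69.2% and 81.0%. The single gene with most counts at 72 h, picked out after its values were seen, took 0.138% to 9.37% of the counts on genes at 72 h (median 3.20%) and 0.0711% to 2.42% at 168 h (median 0.480%). Its log2 fold change was -2.57 with a standard error of 0.70 (edgeR, adjusted p = 0.0345), and the ranges of the 2 ages overlapped. Another gene, picked because it had the largest excess in calf 3165 at 72 h among genes over 1% of its counts, took 6.35% of the counts of calf 3165 at 72 h and between 0.00234% and 0.677% in the other 72 h libraries. At a log2 fold change of -3.52 with a standard error of 1.49 it did not pass the test (edgeR, adjusted p = 0.104).

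Calves differed in how far they moved, and moved the same way. The median log2 change of the upregulated DEG was 1.62 in calf 3177 and 1.16 in calf 3139, and between 0.49 and 0.80 in the other 5 calves. The median of the downregulated DEG was -1.84 in calf 3177 and -1.31 in calf 3139, and between -0.85 and -0.49 in the other 5. The order of the calves was the same in both directions, with calves 3177 and 3139 moving most and calves 3172 and 3179 least. Even in calf 3179, 464 of the 538 upregulated DEG were higher and 1095 of the 1210 downregulated DEG were lower at 168 h. The median over all genes tested lay between -0.01 and 0.07 in each of the 7 calves. These DEG were chosen on the same changes, so the values describe the spread between calves and are no test of it.

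Seen over the 4 ages, both groups of DEG had at the median departed from their 0 h level by 72 h and crossed it by 168 h. The genes were chosen on the difference between 72 h and 168 h, which favours a 0 h level between them. The courses are therefore a description. The downregulated DEG took 10.9% to 19.1% of all counts on genes at 0 h (median 13.3%) and 12.6% to 21.5% at 48 h (median 16.7%). Their share was 14.2% to 24.6% at 72 h (median 19.3%), against 7.15% to 12.6% at 168 h (median 10.5%). The 7 libraries at 72 h were all above the 7 at 168 h, which is what the choice of the genes favours, and the 0 h libraries lay between and overlapped both. The upregulated DEG took 1.41% to 3.47% at 0 h (median 2.98%) and 1.51% to 3.35% at 48 h (median 2.10%). Their share was 0.962% to 2.80% at 72 h (median 2.00%), against 3.35% to 4.27% at 168 h (median 3.81%). These shares are raw counts over all counts on genes of a library. They are thus scaled by total counts and not by TMM. At 48 h, an age that had no part in choosing the genes, both medians lay between those of 0 h and 72 h. Without calf 3165 this was lost for the upregulated DEG, at 2.02% at 48 h and 2.10% at 72 h. For the downregulated DEG it was kept, at 17.65% and 18.74%, with 10.95% at 168 h.

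**Figure D2:**
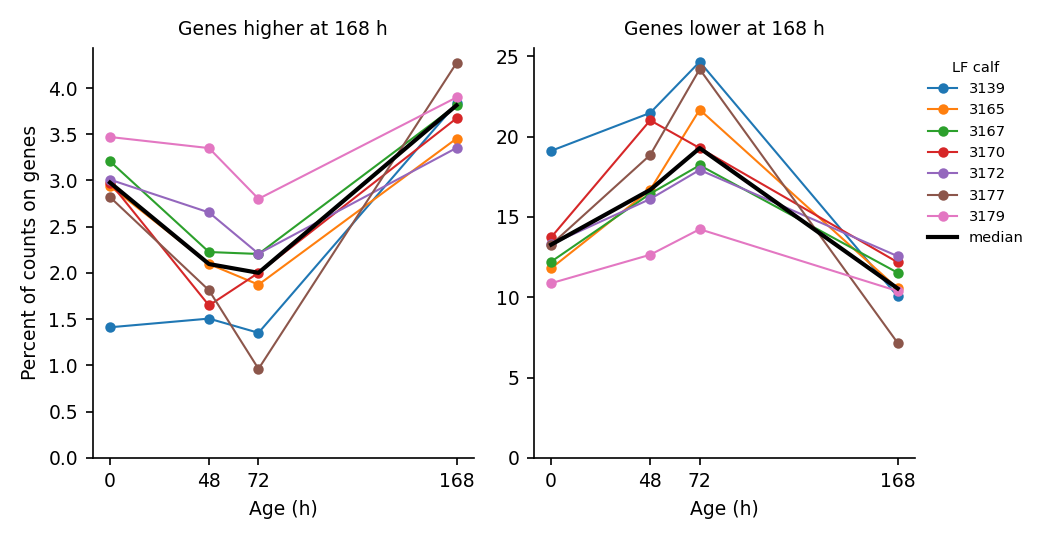
Percent of the counts on genes (vertical axis) taken by the upregulated DEG (left) and the downregulated DEG (right) at the 4 ages, with 1 thin line per LF calf and the median in black. The median of the downregulated DEG climbed from 13.3% at 0 h to 19.3% at 72 h and stood at 10.5% at 168 h, and the upregulated DEG ran the opposite course from 2.98% through 2.00% to 3.81%. The single gene with most counts at 72 h is part of the share on the right, with a median of 3.20% at 72 h.

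In log2 CPM, the median gene of the downregulated group stood 0.46 above its 0 h mean at 48 h, 0.68 above it at 72 h and 0.30 below it at 168 h. The median gene of the upregulated group stood 0.38 below its 0 h mean at 48 h, 0.51 below it at 72 h and 0.34 above it at 168 h. For 771 (63.7%) of the downregulated and 316 (58.7%) of the upregulated DEG the 168 h mean was nearer to the 0 h mean than the 72 h mean was, beside 6392 (50.2%) of all genes tested. The median gene of each group had passed its 0 h level by 168 h, which the choice of the genes also favours. Without calf 3167 the downregulated group stood 0.69 above its 0 h mean at 72 h and 0.33 below it at 168 h, and the shares nearer to 0 h at 168 h were 62.7% and 55.9%. Without calf 3165 the corresponding values were 0.68, 0.31, 62.9% and 56.9%.

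The first 2 days gave groups of genes fixed on other libraries of the same calves. Between 0 h and 48 h, 1853 of 12794 genes (14.5%) were DEG by the same test, 1063 (8.31%) upregulated and 790 (6.17%) downregulated. Of the 1056 genes upregulated by 48 h that were also tested at the later ages, 419 (39.7%) were downregulated and 10 (0.947%) upregulated between 72 h and 168 h. Of the 744 genes downregulated by 48 h, 21.1% were upregulated and 6.18% downregulated later. Among the 10783 genes not called at 48 h, 727 (6.74%) were downregulated later and 355 (3.29%) upregulated. The later median log2 fold change was -0.53 for the genes upregulated by 48 h, 0.29 for those downregulated and 0.05 for those not called. A median below 0 was seen in 7 of 7 calves for the first of these groups, from -0.92 in calf 3177 to -0.16 in calf 3165. A median above 0 was seen in 7 of 7 calves for the second, from 0.02 in calf 3165 to 0.52 in calf 3177. The genes not called had medians of 0 to 0.0995 in single calves. In calf 3165 their median (0.0583) lay above that of the second group, and in every other calf it lay below. Scaled by total counts alone the medians of the groups, in the order given above, were -0.34, 0.48 and 0.25, with 349 of the 1056 downregulated and 270 of the 744 upregulated. With calf 3167 left out of the 48 h versus 0 h fit, 377 of 970 genes (38.9%) upregulated by 48 h were downregulated later, and 20.3% of 591 downregulated by 48 h were upregulated later. Without calf 3139, 3167 or 3170 in the later fit, the 39.7% became 17.0%, 19.2% and 15.5%, and the 21.1% became 9.8%, 9.41% and 8.89%. In these 3 fits 364, 450 and 372 genes in all were downregulated.

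The later changes were next compared by the size of the change at 48 h, as a description with no test. Genes that had risen by 1.5-fold to 2-fold by 48 h had a later median log2 fold change of -0.36 (510 genes), those that had risen by 2-fold to 4-fold of -0.70 (393 genes) and those that had risen by at least 4-fold of -0.97. The shares downregulated later were 32.2%, 46.6% and 47.1%. In calves 3165 and 3177 the group that rose most had a median nearer to 0 than the group that rose by 2-fold to 4-fold. For genes downregulated by 48 h, the medians and the shares called ran in opposite orders. The later medians were 0.35 for genes that had fallen by 1.5-fold to 2-fold (412 genes), 0.20 for 2-fold to 4-fold (272 genes) and -0.10 for at least 4-fold (60 genes), and the last of these was 0.09 when scaled by total counts alone. The shares upregulated later were 18.4%, 23.2% and 30% from the smallest to the largest fall. Without calf 3165 in the later fit the medians were -0.42, -0.77 and -1.05 after rises and 0.37, 0.29 and -0.01 after falls, and without calf 3167 at 48 h they were -0.35, -0.61 and -0.99, and 0.33, 0.10 and -0.14. In the group of 60 genes the medians of single calves ran from -1.04 in calf 3177 to 1.11 in calf 3172. At 168 h neither group had reached its 0 h level at the median. The same 0 h libraries had a part in choosing these genes, which favours such a gap. The median gene upregulated by 48 h stood 1.01 above its 0 h mean (log2 CPM) at 48 h, 1.13 above it at 72 h and still 0.55 above it at 168 h. The median gene downregulated by 48 h stood 0.90 below its 0 h mean at 48 h, 0.88 below it at 72 h and 0.65 below it at 168 h. The 168 h values were 0.53 above and 0.64 below without calf 3167, and 0.56 above and 0.64 below without calf 3165.

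**Figure D3:**
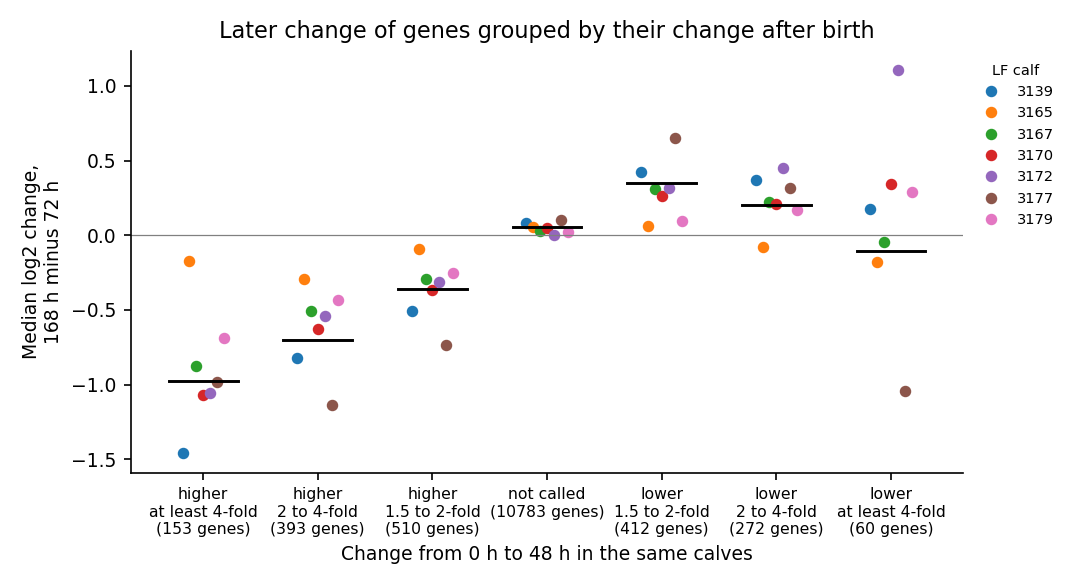
Genes were grouped by their change from 0 h to 48 h in LF calves (horizontal axis), and the vertical axis gives the median log2 change of each group from 72 h to 168 h, with 1 point per calf and a black bar at the median of the fitted fold changes. The bars stand at -0.36, -0.70 and -0.97 for the 3 groups of rising genes, while the 7 points spread from -1.04 to 1.11 in the 60 genes that had fallen by at least 4-fold.

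The 2 largest upward and 2 largest downward changes among DEG with a mean of at least 1 CPM at either age and the same sign of change in 7 of 7 calves are given by identifier. ENSBTAG00000047700 measured 0.933, 1.25 and 2.55 CPM at 72 h (lowest, median and highest of 7 calves) and 5.72, 29.6 and 77.1 CPM at 168 h. Every calf was higher at 168 h than any calf at 72 h. Its log2 fold change was 4.02 with a standard error of 0.56 (edgeR, adjusted p = 0.00749). It had fallen by 48 h, with a log2 fold change of -1.72 and a standard error of 0.32 (edgeR, adjusted p = 0.00433), or -1.53 with a standard error of 0.33 without calf 3167 (adjusted p = 0.0135).

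ENSBTAG00000047816 measured 0.0549, 0.0838 and 1.51 CPM at 72 h and 1.08, 4.43 and 7.63 CPM at 168 h, on 1 to 43 and 27 to 214 counts per library. The ranges overlapped through calf 3167 at 72 h, and the change within a calf was smallest in that calf. Its log2 fold change was 4.16 with a standard error of 0.49 (edgeR, adjusted p = 0.0046), and 4.90 without calf 3167. Between 0 h and 48 h its log2 fold change was -2.84 with a standard error of 0.75 (edgeR, adjusted p = 0.0218), a call that was lost without calf 3167, at -2.69 with a standard error of 0.89 (adjusted p = 0.0669).

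ENSBTAG00000031658 measured 0.333, 5.13 and 60.2 CPM at 72 h and 0, 0.247 and 2.80 CPM at 168 h. The ranges overlapped, since calves began from very different levels at 72 h, with calf 3165 the highest. Its log2 fold change was -4.01 with a standard error of 0.77 (edgeR, adjusted p = 0.0155), and -3.39 without calf 3165 (adjusted p = 0.0278). It had risen by 48 h, with a log2 fold change of 1.97 and a standard error of 0.44 (edgeR, adjusted p = 0.0103), or 2.13 with a standard error of 0.45 without calf 3167 (adjusted p = 0.014).

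ENSBTAG00000005431 measured 0.037, 1.08 and 15 CPM at 72 h and 0, 0.0357 and 0.716 CPM at 168 h, on 1 to 273 and 0 to 19 counts per library. The ranges overlapped, calf 3165 was again the highest at 72 h, and calf 3179, with 1 count at 72 h, differed between the ages by 0.01 in log2 CPM. Its log2 fold change was -3.79 with a standard error of 0.78 (edgeR, adjusted p = 0.0182), and the gene was not tested without calf 3165 or without calf 3170, since it no longer passed the filter on low counts. It had risen by 48 h, with a log2 fold change of 2.11 and a standard error of 0.34 (edgeR, adjusted p = 0.00257), or 2.07 with a standard error of 0.34 without calf 3167 (adjusted p = 0.00516). Against a fold change of 1.5, this gene and ENSBTAG00000031658 missed the threshold (adjusted p = 0.0893 and 0.0714).

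**Figure D4:**
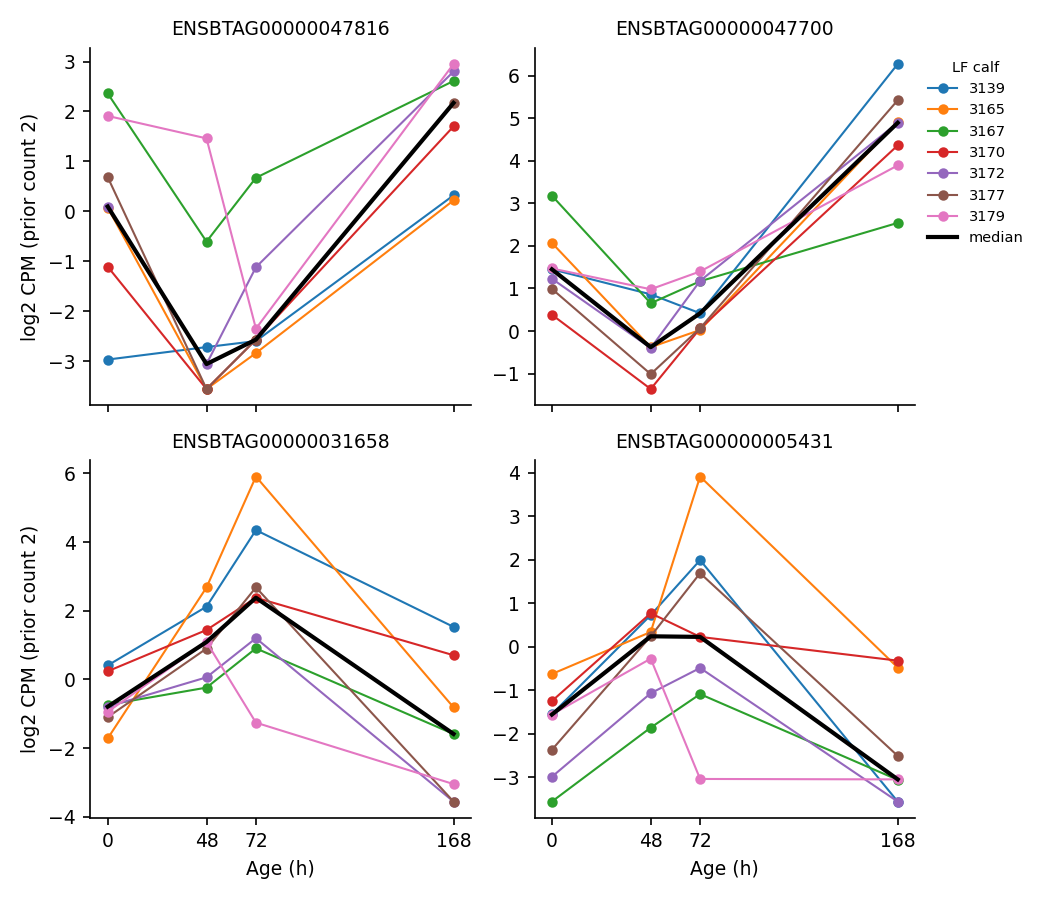
Level of the 4 named genes in log2 CPM (prior count 2, vertical axes on separate ranges) at the 4 ages, with 1 thin line per LF calf and the median in black. The medians of ENSBTAG00000047816 and ENSBTAG00000047700 (upper panels) dip after birth and stand highest at 168 h, and those of ENSBTAG00000031658 and ENSBTAG00000005431 (lower panels) peak at 48 h to 72 h, with calf 3165 the highest at 72 h in both.

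Most DEG of LF calves had the same sign of change in calves of the other breeds over the same ages, whether or not they passed the test there. In CL calves 731 of 12770 genes (5.72%) were DEG, 162 upregulated (1.27%) and 569 downregulated (4.46%), and of these 160 and 564 were tested in LF calves. In LF calves, 68.1% of the former were upregulated and 460 (81.6%) of the latter downregulated, and 0 were called in the opposite direction. Their median log2 fold changes in LF calves were 1.06 and -1.06, beside 0.78 and -0.86 in the CL calves in which they were chosen. Read the other way, the DEG of LF calves had median log2 fold changes of 0.48 and -0.66 in CL calves, and 526 of 531 (99.1%) and 1194 of 1199 (99.6%) had the same sign there, beside 52.6% and 47.3% of all genes with that sign. These shared calls were 20.5% and 38.4% of the DEG of LF calves tested in CL calves. Without calf 3165, 56.9% and 71.6% of the genes called in CL calves were called the same way in LF calves, with medians of 1.07 and -1.13. The CL calls rested on the pairing by calf, with 2 DEG left without it.

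In H calves 1127 of 12541 genes (8.99%) were DEG, 431 upregulated (3.44%) and 696 downregulated (5.55%), and of these 429 and 683 were tested in LF calves. In LF calves, 140 (32.6%) of the former were upregulated and 468 (68.5%) of the latter downregulated, with 0 called in the opposite direction. Their median log2 fold changes in LF calves were 0.73 and -0.98, beside 1.06 and -0.94 in the H calves in which they were chosen. The genes upregulated in H calves had medians from -0.23 in calf 3179 to 2.03 in calf 3177 among single LF calves, and those downregulated had medians from -1.86 in calf 3177 to -0.42 in calf 3179. The DEG of LF calves had medians of 0.54 and -0.60 in H calves, and 490 of 518 (94.6%) and 1152 of 1187 (97.1%) had the same sign there, beside 49.4% and 50.6% of all genes. Without calf 3165, 23.5% and 57.6% of the genes called in H calves were called the same way in LF calves. Without the 2 H calves whose 72 h libraries stood apart, 579 (4.60%) and 778 (6.18%) of 12592 genes were DEG in H calves. Of those tested in LF calves, 32.3% and 68.3% were called the same way there. In all, 62 (11.5%) of the upregulated and 239 (19.8%) of the downregulated DEG of LF calves were called the same way in both other breeds, beside 0.799% and 2.19% of the 12392 genes tested in all 3 breeds. A further 351 (65.2%) and 521 (43.1%) were called in neither, beside 88.2% of those genes. The shares of DEG are over all DEG of LF calves, and a gene not tested in a breed counted as not called there. The shares beside them are over genes tested in all 3 breeds only. Without the 2 H calves, 68 and 292 were called the same way in both.

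**Figure D5:**
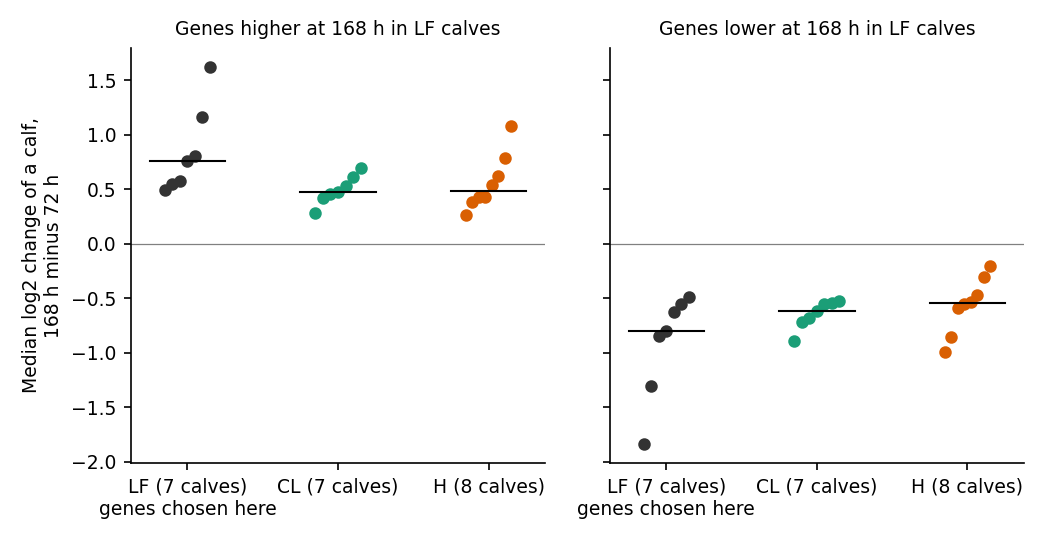
Median log2 change from 72 h to 168 h (vertical axis) of the genes upregulated (left) and downregulated (right) in LF calves, with 1 point per calf of each breed and a bar at the median of the calves. The genes were chosen in LF calves, so that those points are a description, and all 7 CL and 8 H calves lie on the same side of 0, between 0.26 and 1.08 on the left and between -0.996 and -0.209 on the right.

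Whether the change in LF calves differed from that in the other breeds was tested by the interaction of breed and age. The difference between the change in LF calves and that in CL calves gave 0 DEG among 13204 genes (0%) by edgeR's quasi-likelihood test, with 429 genes (3.25%) at an unadjusted p under 0.05 and a smallest adjusted p of 0.978, and DESeq2 with the same block gave 0. The difference from H calves gave 0 DEG among 13132 genes (0%) by edgeR, with 994 genes (7.57%) at an unadjusted p under 0.05 and a smallest adjusted p of 0.647, and DESeq2 gave 1 (adjusted p = 0.0118), which was not named by the rule. Without the 2 H calves edgeR gave 0, with 911 genes (6.92%) at an unadjusted p under 0.05 and a smallest adjusted p of 0.716. A p-value that misses the threshold does not show that the breeds changed alike. ENSBTAG00000047816 was upregulated in CL calves (log2 fold change 3.83, standard error 0.94, edgeR, adjusted p = 0.0387) and in H calves (3.39, standard error 0.31, adjusted p = 0.000464). ENSBTAG00000047700 was upregulated in CL calves (3.34, standard error 0.57, edgeR, adjusted p = 0.0126) and in H calves (2.4, standard error 0.63, adjusted p = 0.0329). ENSBTAG00000031658 was downregulated in H calves (-4.47, standard error 1.10, edgeR, adjusted p = 0.0262) and at -2.92 with a standard error of 1.61 did not pass the test in CL calves (adjusted p = 0.268). ENSBTAG00000005431, at -3.43 with a standard error of 1.64, did not pass in CL calves (edgeR, adjusted p = 0.208) and was not tested in H calves, being too little counted there. For none of the 4 genes did the difference between breeds pass the test, with adjusted p-values of 0.659 or more (edgeR).

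Calves were somewhat closer to each other at 168 h than at 72 h, within the spread between calves. The median standard deviation between LF calves, in log2 CPM over the 12738 genes, measured 0.29 on the day of birth, 0.32 at 48 h, 0.29 at 72 h, and at the last age 0.25, and 64.2% of genes varied less at 168 h than at 72 h. The corresponding shares were 59.2% in CL calves and 81.4% in H calves, and 50.6% in H calves without the 2 whose 72 h libraries stood apart. The root mean square distance of a library from the mean of the other 6 of its age was 0.545 ± 0.0998 at 72 h and 0.480 ± 0.0595 at 168 h (log2 CPM, SD, n = 7), lower at 168 h in 6 of 7 calves (exact paired permutation test, two-sided, p = 0.0938, adjusted p = 0.141). The mean change of this distance was -0.065, and between -0.081 without calf 3172 and -0.043 without calf 3165 when 1 calf was left out. Unadjusted p-values of that exact test were 0.0312 without calf 3172, and 0.125 to 0.1875 without any other calf. The share of reads mapping to several places, at 11.5% ± 5.6 at 72 h and 8.33% ± 0.951 at 168 h (SD, n = 7), also did not pass (exact paired permutation test, p = 0.156, adjusted p = 0.188). Its mean change was -3.18 points, and -1.12 points without calf 3165.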

How the data were processed

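Per the labels and the study's methods, the authors took blood into Tempus tubes, prepared TruSeq libraries and read them single-end on a HiSeq2000. The authors trimmed reads with cutadapt (through TrimGalore, with FastQC), aligned them with STAR to UMD3.1 (Ensembl gene models) and deposited raw read counts per gene, 1 file per library. Tool versions are not given in the sources used here. The deposited count column without strand was used, so that reads of overlapping or antisense genes cannot be told apart, and reads mapping to several places are not counted, which leaves near-identical genes undercounted. Rows that name no gene (unmapped, multimapping, no feature, ambiguous) stayed out of all tests and are 31.5% to 43.3% of the reads of the 14 libraries.

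Counts were fitted with edgeR 4.0.16 (R 4.3.3): filterByExpr, TMM, robust quasi-likelihood fit, calf as a block, Benjamini-Hochberg over all genes tested. DEG met the study's thresholds, an adjusted p under 0.05 and a change of 1.5-fold or more. CPM were scaled by TMM over all 88 libraries, and log2 CPM used a prior count of 2. Standard errors are the log2 fold change over the root of F. Exact permutation tests of library measures changed the sign of each calf's difference (Python 3.11.15). Pairs come from the calf's tag, since replicate numbers in the labels do not follow the calf; same-calf deviations from the age means correlated at 0.08 to 0.64 over the genes tested, against a mean of -0.05 between different calves, and 5 of 7 calves matched their own library best. Each calf is a separate animal. The scripts were tested on simulated data. DESeq2 1.42.0 and other settings were tried as alternatives.

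The members, gene lists and tests were chosen with earlier results of these data known. The named genes were the 2 largest rises and 2 largest falls among DEG with the same sign of change in 7 of 7 calves and a mean of at least 1 CPM at either age. The rule also covered gene lists, blood cell markers and genes of interest by symbol, and leaving out haemoglobin genes. These were not analysed here, since no table used pairs the identifiers with symbols. Fits without calf 3165, calf 3167 or 2 H calves were added after seeing the data, except where each LF calf was left out in turn.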

Additional observations from a re-analysis of the deposited data

Results flagged for a closer look

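For a sample far from the others, 26 groups of 7 values were examined. In 8 groups its gap to its nearest neighbour was a larger part of the range than Dixon's critical value allows. Chance gives about 1 in 20 groups where values are normally distributed. CPM and shares were examined without a log, so this rate may not hold for them. At 72 h, 4 of the 8 flagged values were those of calf 3165. These were the share of multimapping reads (23.4%, next highest 13.4%), the share of the 10 most counted genes (20.5%, next 11.9%), ENSBTAG00000031658 (60.2 CPM, next 20.3) and ENSBTAG00000005431 (15 CPM, next 3.88). Their connection was not tested. At 72 h calf 3167 had 1.51 CPM of ENSBTAG00000047816 (next 0.377). At 168 h calf 3170 had 7.54% of its counts in its 10 most counted genes (next 5.93%) and 2.42% in the gene most counted at 72 h (next 1.05%). Also at 168 h, calf 3177 lay farthest from the mean of the other calves, at 0.606 in log2 CPM (next 0.485).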

How the results depend on the processing

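Without the pairing (no replicate block) there were 1780 DEG, 76.1% of them downregulated. DESeq2 without the block gave 75% downregulated, a minimum of 10 counts in every sample 75.4%, all 28 LF samples in 1 fit 65.7%, and leaving out the 10 most counted genes (added after seeing the data) 72.9%. With no fold change threshold there were 2952 DEG, 1209 upregulated, and 59.0% downregulated. Against a fold change of 1.5 there were 52, 13 upregulated and 39 downregulated (75%), with 2.75% of the genes upregulated by 48 h downregulated later and 1.61% of those downregulated by 48 h upregulated later. By library size alone, 1535 were upregulated, 35.8% were downregulated and 36.3% of the genes downregulated by 48 h were upregulated later. The cause of these shifts was not tested, apart from the stricter or looser thresholds. Leaving out 1 calf at a time gave 508 to 2098 DEG, 136 to 741 upregulated, 364 to 1357 downregulated, 64.7% to 73.5% downregulated, with 15.5% to 40.6% of the genes upregulated by 48 h downregulated later and 8.89% to 25.1% of those downregulated by 48 h upregulated later. The number for CL calves was 2 without the replicate block, against 731 (added after seeing the data). DESeq2 with the replicate block gave 1 DEG for the difference from H calves. For the named genes 61 of 63 alternatives kept direction and call. The other two were the test against 1.5-fold. A gene that failed a filter on low counts had no value there, which was so for ENSBTAG00000005431 without calf 3165 or 3170 and for 3 of the 4 named genes with at least 10 counts required in every sample. Leaving out haemoglobin genes was not run. Genes under about 0.109 to 0.158 CPM rest on 3 counts or fewer in a library. This range is on total counts on genes, without the TMM scaling of the CPM given above.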
